A study of Rattus norvegicus with 24 samples.

Results

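Primary rat hepatocytes were cultured on a layer of collagen gel (monolayer) or between 2 layers (sandwich), and the results below concern 1 contrast of that study: how the gap between the cultures changed from day 3 to day 8. The gap is the log2 level in sandwich minus the log2 level in monolayer, and the gap change is the gap at day 8 minus the gap at day 3. The contrast rests on 12 of the 24 arrays, 3 for each culture at each of the 2 days, and was computed for all 31042 probe sets of the array that are not controls. It asks which differences between the cultures were still growing after day 3 and which were closing.

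All groups were hepatocytes isolated from rat, seeded on plates coated with type I collagen gel and kept in medium with serum, epidermal growth factor, insulin, glucagon and hydrocortisone that was changed daily. The 4 groups used were monolayer at day 3, monolayer at day 8, sandwich at day 3 and sandwich at day 8. Sandwich cultures received the upper gel 24 hours after seeding, days are counted from that step, and the labels call the monolayer the unstable and the sandwich the stable control. Strain, age and sex of the animals are not given in the labels. The labels number the arrays of a group 1 to 3 without saying whether they came from separate animals or cultures, so the p-values measure only the spread between these arrays, which may be technical. The arrays measure bulk RNA, in which fewer cells of a type and less RNA per cell cannot be told apart.

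Hepatocytes taken out of the liver lose their specialised functions in culture. In the liver they make most plasma proteins, break down amino acids and dispose of the nitrogen as urea, release glucose, turn cholesterol into bile acids and modify drugs through cytochromes P450 and conjugating enzymes. On stiff or exposed surfaces they spread, build actin stress fibres and switch on genes of other epithelia, and a collagen overlay is known to slow this. Factors that hold the hepatocyte programme include HNF4 and HNF1, while serum response factor, YAP with TEAD, and AP-1 drive many of the genes of spreading and growth.

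Over all probe sets, 2 arrays within a group had a Pearson correlation of at least 0.993, and 2 arrays from different groups one of at most 0.989, which describes likeness only. The difference between the 3' and 5' control probe sets of beta-actin, a sign of RNA integrity, was larger in sandwich on both days without overlap. It ran from 0.80 to 0.83 on monolayer arrays and from 0.96 to 1.16 on sandwich arrays at day 3, and from 0.78 to 0.88 and from 0.90 to 1.21 at day 8. Its gap was 0.22 at day 3 and 0.18 at day 8, and that of GAPDH 0.04 and 0.08. Their part in the results was not tested. Of 11 measured hepatocyte markers, the mean level lay between 12.25 and 12.32 on monolayer arrays and 12.79 and 12.87 on sandwich arrays at day 3, far above the median of all values, 5.62. At day 8 it lay between 11.74 and 12.11 in monolayer and between 12.90 and 13.02 in sandwich. Albumin itself was near the top of the scale in every group, with group means from 15.00 to 15.02, where a difference would not be readable.

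The gap changed for 1908 of the 31042 probe sets (6.15%; limma, Benjamini-Hochberg adjusted p under 0.05). It moved toward sandwich for 967 (3.12%) and toward monolayer for 941 (3.03%). Read by gene, with 1 probe set for each of 14217 genes, 1253 genes were called (8.81%), 651 toward sandwich (4.58%) and 602 toward monolayer (4.23%). The median gap change over all genes was -0.01, the median standard error 0.15, and the smallest called gap change 0.36 in size.

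Each called gene was classed by the higher culture, taken from the mean of the gaps at both days, so that a gap that opened from near 0 counts as widened by construction. The gap widened with sandwich the higher culture for 519 genes and with monolayer the higher for 501. It narrowed for 101 genes that were higher in sandwich and for 132 that were higher in monolayer. Classed instead by the sign of the gap at day 2, whose arrays are not in the contrast, 318 and 306 genes widened and 296 and 333 narrowed. Of the 519 and 501 genes, however, only 107 and 56 had a called gap on the same side at day 2, and 26 and 9 on the other. The sign of an uncalled gap is uncertain, so this split cannot say which course was more frequent. Among the called genes, 59 changed sides, with a called gap at day 3 and a called gap of the opposite sign at day 8. Without the second sandwich array of day 3 the class that narrowed with sandwich higher held 66 genes instead of 101.

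**Figure D1:**
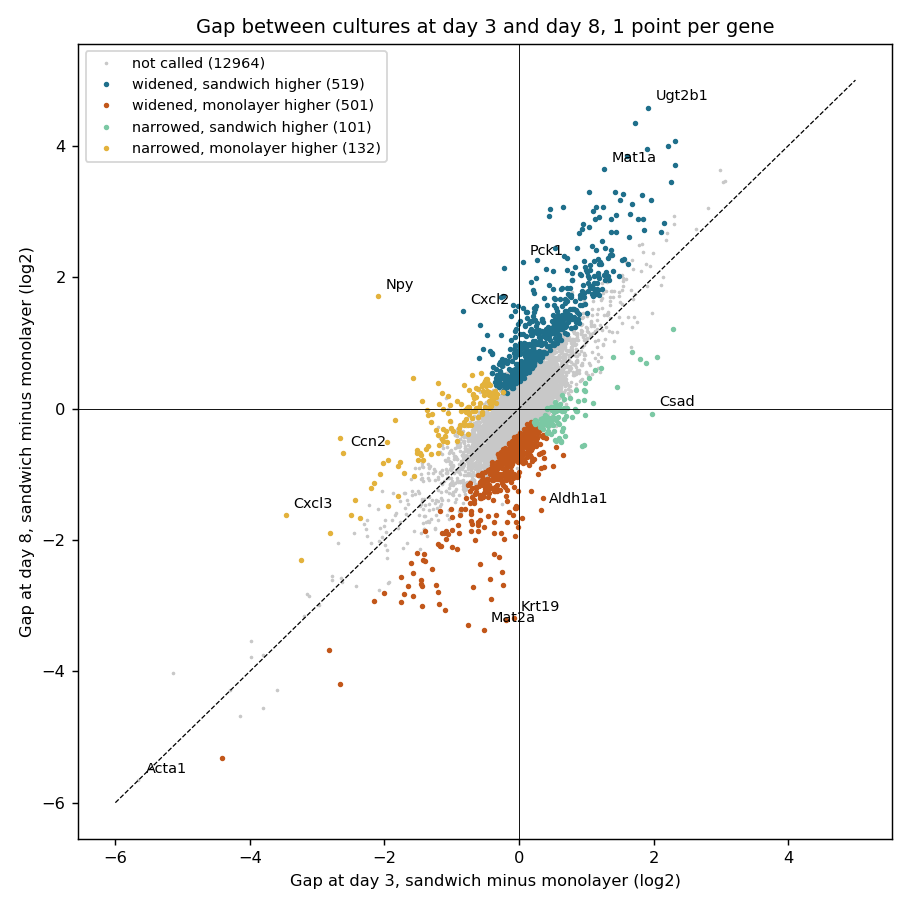
Gap between sandwich and monolayer at day 3 (horizontal axis, log2) against the gap at day 8 (vertical axis, log2), with 1 point for each of 14217 genes. The 1253 genes with a called gap change are coloured by class, uncalled genes are grey, and the dashed line marks an equal gap on both days. Ugt2b1 and Mat1a lie far above the line, Krt19 and Mat2a far below it, Acta1 on it, and Npy at the upper left, where the gap had changed sides.

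The classes also differed in which culture moved. Over all genes, 2422 had a called change from day 3 to day 8 in monolayer (17%; 8.66% up and 8.38% down) and 2148 in sandwich (15.1%; 7.01% up and 8.1% down). The gap itself was called for 3229 genes at day 3 (22.7%; 10.9% higher in sandwich) and for 5158 at day 8 (36.3%; 15.6% higher in sandwich). Of the 519 genes that widened with sandwich higher, 209 fell in monolayer with no called change in sandwich, 168 rose in sandwich with no called change in monolayer, and in 71 the cultures changed in opposite directions. For 254 of them the gap was called at day 8 and not at day 3, and for 245 it was called at both. Of the 501 genes that widened with monolayer higher, 265 rose in monolayer alone and 122 fell in sandwich alone, and the gap of 323 was first called at day 8. In the 132 genes that narrowed with monolayer higher, the larger group was 69 genes that rose in sandwich alone, beside 27 that fell in monolayer alone. In the 101 that narrowed with sandwich higher, 56 fell in sandwich alone and 17 rose in monolayer alone. These counts describe the contrast's own arrays and are not separate evidence.

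The arrays of day 2 took no part in the contrast and give the direction of each gap beforehand. At day 2, 1233 genes had a called gap (8.67%), 402 of them higher in sandwich (2.83% of all) and 831 higher in monolayer (5.85%). Of the 402, the gap later moved further toward sandwich for 107 (26.6%, against 4.58% of all genes) and back for 36 (8.96%, against 4.23%). Of the 831 it was the other way round, with 133 moving back (16.0%, against 4.58%) and 56 moving further (6.74%, against 4.23%). In each alternative setting that could be run, more of the first set moved further than back and more of the second moved back than further. The gap at day 2 and the gap change share no array, but they share 1 estimate of the spread per probe set. A gene of small spread is more easily called in both, so the shares over all genes are not a strict baseline. For comparison, the step from day 1 to day 2, which shares no array with the later contrast either, gave a called gap change for 116 genes (0.816%), though it spans 1 day and the later step 5. By the called gap at day 3, 1554 genes were higher in sandwich, of which 245 moved further (15.8%) and 104 back (6.69%). Of the 1675 higher in monolayer, 163 moved further (9.73%) and 150 back (8.96%), unlike the split by day 2. The day 3 gap shares arrays with the gap change, so these shares only describe it.

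Metabolic genes of the hepatocyte made up most of the lists in which gaps kept growing. Of 53 measured genes of amino acid breakdown and the urea cycle, the gap moved toward sandwich for 26 and toward monolayer for 1, against 4.58% and 4.23% of all genes, and the median gap went from 0.79 at day 3 to 1.42 at day 8. For fatty acid oxidation and ketone production the counts were 18 and 1 of 38, for fatty acid and triglyceride synthesis 10 and 0 of 24, for glucose production and glycogen 8 and 0 of 18, for cholesterol synthesis 7 and 0 of 20, and for cytochromes P450 14 and 1 of 39. Plasma proteins and apolipoproteins gave 15 and 1 of 43, and bile acid synthesis and transport 7 and 1 of 35. Coagulation and complement gave 15 and 1 of 36. The 15 were 8 in the fit of the 12 arrays of days 3 and 8 alone and 7 at an adjusted p under 0.01 in limma. They were 9 without monolayer array 3 of day 3. Without monolayer array 3 of day 8 they were also 9, and 6 members moved toward monolayer instead of 1. Medians of the change within each culture differed between these lists. Amino acid genes had a median change of -0.50 in monolayer and -0.04 in sandwich, plasma proteins -0.61 and 0.02, and fatty acid oxidation genes -0.01 and 0.37.

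**Figure D2:**
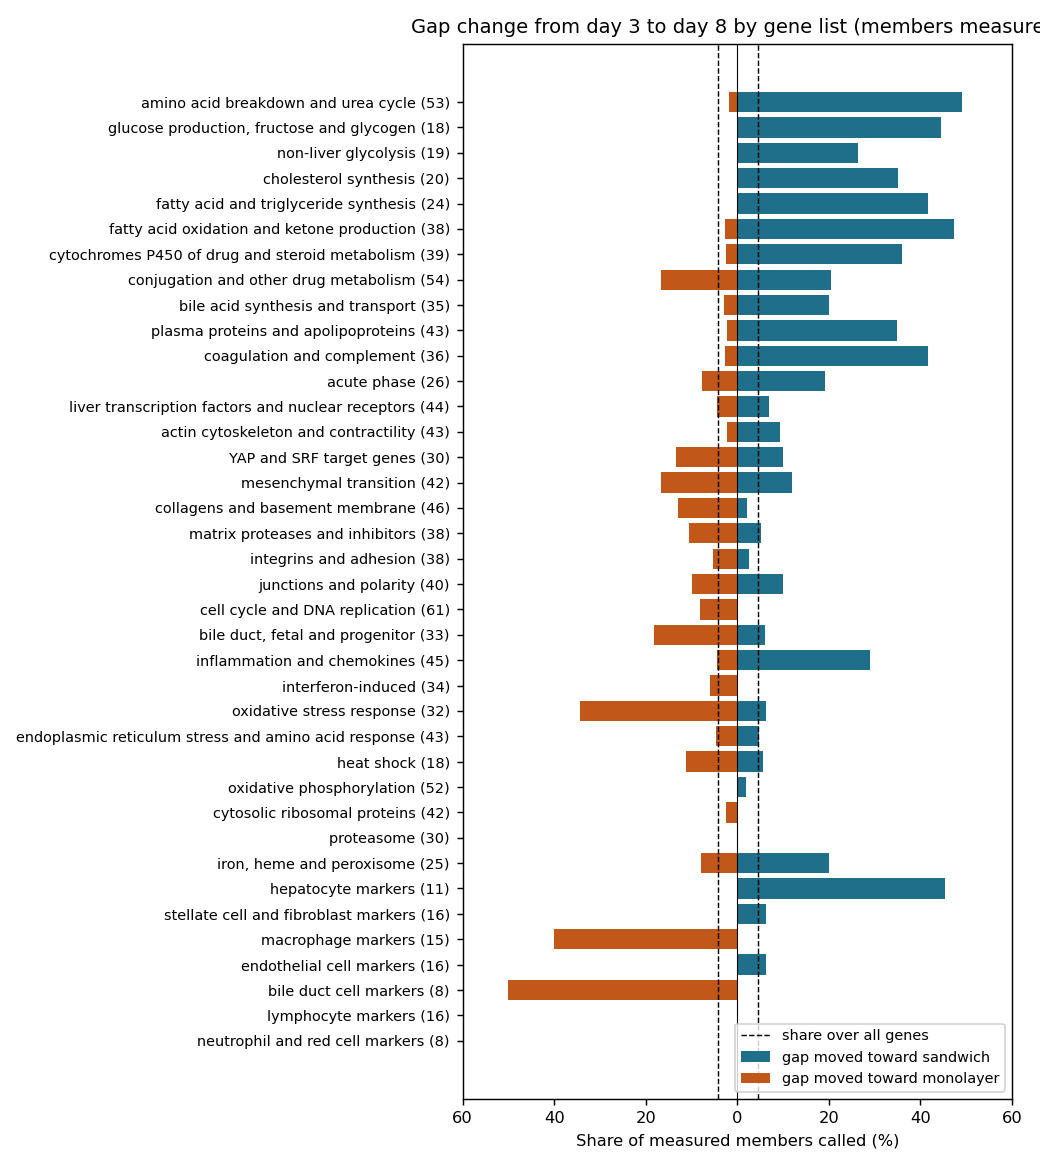
Share of the measured members of each gene list (number in brackets) whose gap change was called, in percent, with bars to the right for gaps that moved toward sandwich and bars to the left for gaps that moved toward monolayer. Dashed lines mark the shares over all genes, 4.58% and 4.23%; amino acid, fatty acid and glucose genes reach far right of them, and oxidative stress genes and macrophage and bile duct markers far left.

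Some of these gaps grew through a rise in sandwich. Ugt2b1, a glucuronosyltransferase that conjugates steroids and drugs, read 9.28, 9.45 and 9.02 on the sandwich arrays of day 3 and 11.78, 11.64 and 11.57 on those of day 8. In monolayer it read 7.28, 7.46 and 7.25, then 7.14, 7.31 and 6.81. Sandwich arrays lay above all monolayer arrays on both days, and the gap went from 3.78-fold to 23.9-fold, a gap change of 2.66 ± 0.17 on the log2 scale (SE, 3 arrays per group; adjusted p = 3.01e-10 in limma), the largest among genes that widened with sandwich higher. Cyp8b1, the sterol hydroxylase that sets the ratio of the primary bile acids, read 6.00, 6.00 and 6.27 in sandwich at day 3 and 8.60, 8.80 and 8.38 at day 8. Its monolayer arrays stayed between 5.48 and 5.78 on both days, and the gap change was 2.50 ± 0.17. Cyp17a1, a steroid hydroxylase, rose in sandwich from a mean of 6.73 to 9.53 while monolayer means were 5.01 and 5.19, near the dim end of the table, so that the gap change of 2.62 ± 0.24 is given without a fold.

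Pck1, which encodes the enzyme that commits carbon to glucose production, had no gap at day 3 that could be told from the spread. Monolayer arrays read 9.49, 9.38 and 10.03 and sandwich arrays 9.83, 9.60 and 9.63, and the groups overlapped. At day 8 monolayer read 9.87, 10.25 and 9.54 and sandwich 12.04, 12.15 and 12.15, a 4.67-fold gap with no overlap (gap change 2.17 ± 0.23, limma adjusted p = 8.50e-07). Pdk4, the kinase that shuts off pyruvate oxidation, rose in both cultures, by 1.58 in monolayer and 3.81 in sandwich. Pex11a, a peroxisome division factor, rose by 0.48 and 2.40, and the acyl-CoA thioesterase Acot1 by 0.49 and 2.06. All 3 genes are known targets of the fatty acid sensor PPAR alpha. The rises were larger in sandwich, with gap changes of 2.24 ± 0.26, 1.92 ± 0.15 and 1.57 ± 0.17.

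Other gaps grew through a fall in monolayer. Mat1a encodes the liver form of methionine adenosyltransferase, which makes the methyl donor S-adenosylmethionine. Its monolayer arrays read 11.49, 11.52 and 11.44 at day 3 and 9.38, 9.55 and 9.18 at day 8, whereas sandwich arrays read 12.90, 12.66 and 12.70 and then 13.06, 13.04 and 12.96. The gap went from 2.41-fold to 12.5-fold, with no called change in sandwich (0.26, limma adjusted p = 0.16). Scd, the desaturase that makes monounsaturated fatty acids, read 12.71, 12.77 and 12.87 in monolayer at day 3 and 10.84, 10.55 and 9.94 at day 8, a fall of 2.34, while the sandwich mean moved by 0.08. Its gap went from 1.57-fold to 8.42-fold. Urad, of urate breakdown, fell by 2.01 in monolayer, and Abcb11, the bile salt export pump, fell by 1.96, with gap changes of 2.26 ± 0.25 and 1.72 ± 0.23. Thrsp, a regulator of fatty acid synthesis, and the apolipoprotein gene Apoa2 fell in monolayer by 1.85 and 1.80 with sandwich changes of -0.15 and -0.02.

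The urea cycle gene Cps1 belonged to the same set. Its monolayer arrays read 11.50, 11.44 and 11.54 at day 3 and 10.23, 10.67 and 9.88 at day 8, and its sandwich arrays 12.48, 12.28 and 12.08 and then 12.36, 12.39 and 12.23. The gap rose from 1.72-fold to 4.17-fold (gap change 1.28 ± 0.19, limma adjusted p = 6.77e-05). Plg, the precursor of the clot-dissolving protease plasmin, fell in both cultures, by 1.77 in monolayer and by 0.72 in sandwich, and its gap went from 3.57-fold to 7.39-fold. G0s2, an inhibitor of fat breakdown, also fell in both, by 3.22 and 1.17. In Plg and G0s2 the sandwich level was falling too, less steeply, whereas that of Cps1 had no called change.

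The promoters of Cps1 and Plg are shown because each carries a short motif of a hepatocyte factor. The window runs from 250 bases before to 50 after the annotated start, from RefSeq on build GRCr8, and 11733 measured genes had one. Cps1 lies at chr9:76063613-76063912 on the plus strand and holds the HNF4 motif CAAAGTCCA on the opposite strand (capitals).
Cps1: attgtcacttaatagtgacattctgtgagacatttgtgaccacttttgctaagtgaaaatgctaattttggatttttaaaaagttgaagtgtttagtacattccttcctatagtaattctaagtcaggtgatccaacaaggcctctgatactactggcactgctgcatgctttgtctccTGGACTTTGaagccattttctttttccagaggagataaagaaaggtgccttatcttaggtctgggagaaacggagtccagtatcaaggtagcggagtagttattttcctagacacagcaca
Plg lies at chr1:50915357-50915656 on the minus strand and holds the HNF1 half-palindrome pair, again on the opposite strand (capitals).
Plg: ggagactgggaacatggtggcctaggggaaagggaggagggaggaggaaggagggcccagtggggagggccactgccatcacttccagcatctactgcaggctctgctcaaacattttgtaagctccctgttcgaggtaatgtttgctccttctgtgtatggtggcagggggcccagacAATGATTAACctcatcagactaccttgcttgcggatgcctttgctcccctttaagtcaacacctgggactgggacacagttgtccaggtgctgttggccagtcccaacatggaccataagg
Searched on both strands, the HNF1 letters stood in 6 of the 439 promoters matched for genes that widened with sandwich higher (1.37%) and in 0.290% of all. The HNF4 letters stood in 6 of 439 (1.37%) and in 0.366% of all. The 6 genes with the HNF1 letters were Acot3, C5l1, Gc, Golt1a, Plg and Serpina4. Matches of letters are a description and not binding sites, and with 6 genes each the shares rest on few promoters.

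For a further group the cultures moved apart from both sides. Apoa4, an apolipoprotein of lipid transport, read 11.88, 11.79 and 11.82 in monolayer at day 3 and 10.82, 10.998 and 10.33 at day 8. In sandwich it read 12.46, 12.28 and 12.14 and then 13.82, 13.77 and 13.67, and the gap went from 1.38-fold to 8.19-fold. Cyp2e1, the ethanol-oxidising cytochrome P450, fell by 0.97 in monolayer and rose by 0.74 in sandwich, which opened a 4.34-fold gap where none was called at day 3 (limma adjusted p = 0.16). Tat, Hgd and Got1, of tyrosine and aspartate metabolism, likewise fell in monolayer and rose in sandwich, with gap changes of 1.32 ± 0.17, 1.81 ± 0.19 and 1.43 ± 0.15. So did Insig1, a sterol-responsive brake on cholesterol synthesis, and Gys2, the liver glycogen synthase, with 1.87 ± 0.18 and 1.59 ± 0.20. Gstm3, a glutathione transferase, was not called at day 3 and 4.43-fold higher in sandwich at day 8. Ugt2b1, the Gstm genes and many cytochromes P450 have close relatives in the rat genome, and whether their probe sets also bind relatives was not tested.

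**Figure D3:**
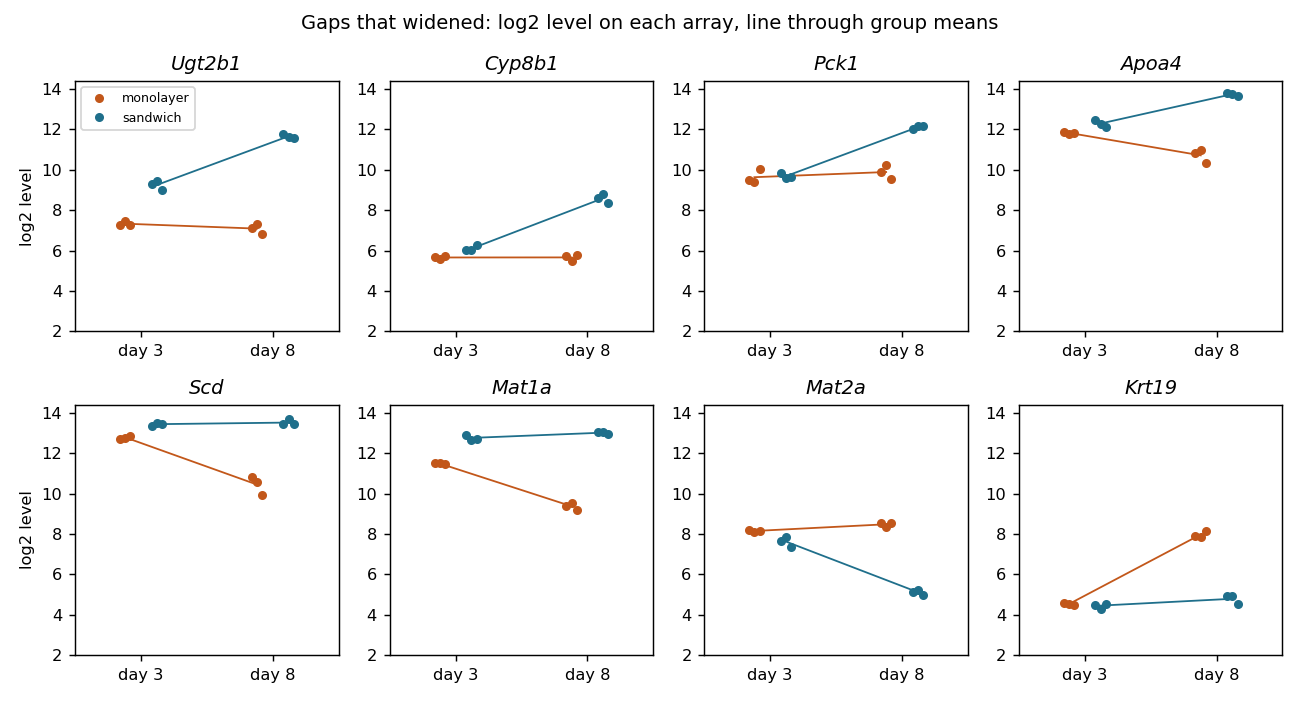
Log2 level on each of the 3 arrays per group at days 3 and 8 for 8 genes whose gap widened, with monolayer in orange, sandwich in blue and lines through the group means. Ugt2b1, Cyp8b1 and Pck1 rise in sandwich, Scd and Mat1a fall in monolayer, Apoa4 moves apart on both sides, Mat2a falls in sandwich and Krt19 rises in monolayer.

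Enzymes of conjugation and other drug metabolism split, taken as 1 list. Of 54 measured genes of conjugation and other drug metabolism, 11 moved toward sandwich (against 4.58% of all genes) and 9 toward monolayer (against 4.23%). Ugt2b1, Gstm3, Gstm2 and Glyat were among the first, and Aldh1a1, Gstp1, Aox1, Gstt3 and Ces1e among the second. Gstp1, the glutathione transferase that is low in adult hepatocytes and high in bile duct and tumour cells, read 12.28, 12.27 and 12.28 in monolayer at day 3 and 13.08, 12.93 and 13.38 at day 8. In sandwich it fell from 11.83, 11.98 and 11.90 to 10.86, 10.94 and 10.97. The groups were apart on both days, and the monolayer level went from 1.29-fold to 4.62-fold above the sandwich (gap change -1.84 ± 0.13, limma adjusted p = 1.67e-09).

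Mat2a, the form of methionine adenosyltransferase found outside the adult liver, ran opposite to Mat1a. Monolayer arrays read 8.21, 8.09 and 8.12 at day 3 and 8.55, 8.36 and 8.52 at day 8. Sandwich arrays read 7.63, 7.85 and 7.37 and then 5.13, 5.22 and 4.97, below the median of all values. The sandwich level fell by 2.51 and the gap went from -0.52 to -3.37 (gap change -2.84 ± 0.15, limma adjusted p = 5.90e-12). The 2 other probe sets of Mat2a had gap changes of -1.32 and 0.02, so the size rests on 1 of 3 probe sets. On the probe sets shown, Mat1a separated through monolayer and Mat2a mainly through sandwich.

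Genes higher in monolayer whose gap grew were led by keratins of ductal epithelium. Krt19 read 4.55, 4.53 and 4.49 in monolayer at day 3 and 4.49, 4.30 and 4.54 in sandwich, dim levels that overlapped. At day 8 monolayer read 7.91, 7.84 and 8.16 and sandwich 4.92, 4.91 and 4.52 (gap change -3.11 ± 0.15, limma adjusted p = 4.63e-12). Krt7 had the same course, with 3.82, 4.02 and 3.95 in monolayer at day 3 and 7.48, 7.36 and 6.86 at day 8, while sandwich arrays stayed between 3.59 and 4.31. The tight junction gene Cldn4 also opened after day 3, with a gap change of -1.53 ± 0.18. For these 3 genes neither day 2 nor day 3 showed a called gap.

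They belong to the list of bile duct cell markers. Of its 8 measured genes, 4 moved toward monolayer (against 4.23% of all genes) and 0 toward sandwich (against 4.58%). The fourth was Epcam, which did not share this course, since it was classed as higher in sandwich with a gap that narrowed. Its gap change of -0.64 ± 0.19 lost its call in several alternatives, among them the fit of the 12 arrays alone (limma adjusted p = 0.0789). The mean level of the list lay between 5.33 and 5.45 on monolayer arrays of day 3 and between 6.69 and 6.72 on those of day 8. In sandwich it lay between 5.32 and 5.47 and then between 5.46 and 5.77. Spp1, another marker of duct cells, had a gap change of 0.06. Whether the keratins came from hepatocytes or from duct cells in the cultures was not tested.

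A few matrix genes moved toward monolayer. Mmp2, a gelatin-degrading protease, read 5.71, 5.57 and 5.89 in monolayer at day 3 and 8.16, 8.05 and 8.47 at day 8, while sandwich arrays ran from 5.01 to 5.65 over both days. Its other probe set had a gap change of 0.05. The basement membrane collagen gene Col4a1 rose in both cultures, by 3.15 in monolayer and 1.37 in sandwich, and its gap, called at both days, changed by -1.78 ± 0.26. Tnc, the matrix glycoprotein tenascin C, and Lama5, a laminin chain, had gap changes of -1.46 ± 0.15 and -1.12 ± 0.16, although the other 2 probe sets of Lama5 gave -0.03 and 0.17. Of 46 measured genes of collagens and basement membrane 6 moved toward monolayer and 1 toward sandwich, with a median gap change of -0.04. For 38 matrix proteases and inhibitors the counts were 4 and 2. Called in either direction were 15.2% and 15.8% of these lists, against 8.81% of all genes. Without the first sandwich array of day 8 the count of 6 was 11.

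That array read higher than the other sandwich arrays of day 8 for fibrillar collagens. Col1a2 read 8.31, 6.95 and 6.46 on the sandwich arrays of day 8 and 8.49, 7.91 and 8.02 on the monolayer arrays, so that the groups overlapped and the gap change of -0.87 ± 0.39 was not called (limma adjusted p = 0.244). Without that array it was -1.40 (limma adjusted p = 0.00122), and for Col3a1 it went from -0.53 to -0.96. For Col1a2, however, the array numbered 1 was the highest in all 4 groups. At day 3 it read 5.06, 4.64 and 4.58 in monolayer and 5.06, 4.62 and 4.52 in sandwich. Leaving out only the sandwich array keeps the high monolayer array of day 8, so the value of -1.40 is not a better estimate. Col1a2 had risen in both cultures from day 3, by 3.38 in monolayer and 2.50 in sandwich. Of 16 markers of stellate cells and fibroblasts, the list that holds these collagens, 1 moved toward sandwich (Rgs5, 1.12 ± 0.16) and 0 toward monolayer. This was 6.25% called, near the 8.81% of all genes. The mean level of that list ran from 5.37 to 5.50 on monolayer arrays and from 5.29 to 5.37 on sandwich arrays at day 3, and from 5.76 to 5.87 and from 5.65 to 5.89 at day 8. Their part in the collagen values was not tested.

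Other genes with large growth toward monolayer were Pamr1, Lhfpl6, Armcx2, Ucp2, Nrep and Tubb2b, with gap changes from -2.54 to -1.96. The other probe set of Lhfpl6 gave -0.02. Ucp2, a mitochondrial uncoupling protein, rose by 2.75 in monolayer and by 0.59 in sandwich, and its gap went from 1.35-fold to 6.03-fold. Lgals3, the galectin made by spreading and macrophage-like cells, rose by 1.06 in monolayer and fell by 0.40 in sandwich. Ezr, which ties actin to the cell membrane, rose from 9.23, 9.13 and 9.18 to 10.77, 10.68 and 10.91 in monolayer, and its gap of 2.97-fold at day 3 became 7.24-fold. Vim, the mesenchymal intermediate filament, rose by 4.10 in monolayer and by 3.37 in sandwich, and its gap change of -0.73 ± 0.21 passed the test (limma adjusted p = 0.0365) but not in the fit of the 12 arrays alone (0.0807), after median centring (0.0649) or in 6 of the fits that left out an array (0.0624 to 0.13).

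Genes of the actin cytoskeleton held some of the largest gaps at day 3, and few of them moved further. Of 43 measured members 34 were called higher in monolayer at day 3 (against 11.8% of all genes) and 37 at day 8 (against 20.7%), and the median gap was -0.85 on both days. The gap change was called for 4 toward sandwich and 1 toward monolayer, near the share over all genes. The 4 became 1 or 2 in 6 of the fits that left out an array. The array left out was monolayer array 1 or 3 of day 3, or monolayer array 3 of day 8. In sandwich it was array 2 of day 3, or array 1 or 3 of day 8. At an adjusted p under 0.01 in limma the 4 were 1. With bright probe sets only they were 7, and also 7 with each gene's probe sets averaged. Acta1, the skeletal muscle actin gene that spreading cells express, read 11.85, 11.51 and 11.91 in monolayer at day 3 and 5.67, 5.36 and 7.25 in sandwich. At day 8 it read 11.74, 11.77 and 11.81 and then 6.65, 5.91 and 5.80, and the gap was 50.6-fold and 50.5-fold. Acta1, Flna, Sox4 and Cd24 were chosen after their values were seen.

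The intervals of these gap changes show how much could have been missed. For Acta1 the 95% interval of the gap change ran from -0.86 to 0.87, for Flna, an actin cross-linker, from -0.36 to 0.34, and for the developmental factor Sox4 from -0.49 to 0.54. The surface protein gene Cd24 rose in both cultures, by 1.93 in monolayer and 1.40 in sandwich, and its gap change of -0.54 ± 0.30 was not called. The actin-binding gene Tagln had a gap of -5.14 at day 3 and -4.02 at day 8 (gap change 1.12 ± 0.35, limma adjusted p = 0.0592). That value was called without the third sandwich array of day 3, the highest of its group (1.52, adjusted p = 0.00139).

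Some hepatocyte genes also had a large gap at day 3 and no called change after it. Fabp1, the liver fatty acid binding protein, had a gap of 3.03 at day 3 and 3.46 at day 8. Slc10a1, the bile acid uptake transporter, had gaps of 2.99 and 3.63, and its gap change of 0.64 ± 0.24 (limma adjusted p = 0.139) was called without the second monolayer array of day 8 (0.82, adjusted p = 0.0393). Of 44 measured liver transcription factors and nuclear receptors, 3 moved toward sandwich and 2 toward monolayer (11.4% called, near the 8.81% of all genes). Hnf4a, the master regulator of hepatocyte identity, was 1.99-fold higher in sandwich at day 3 and 1.45-fold at day 8, a gap change of -0.46 ± 0.14 that missed the threshold (limma adjusted p = 0.0556) and passed it in 7 alternatives, with adjusted p from 0.0143 to 0.0493. Its sandwich level fell by 0.52. Dbp, a clock-driven factor, rose by 2.01 in sandwich and 0.73 in monolayer and was among the 3.

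Among gaps that narrowed, those of genes higher in monolayer were mostly open at day 2 already. Of the 132 genes that narrowed with monolayer higher, 130 had a gap of the same sign at day 2 and 107 were called there. Fam25a, a small gene of stratified epithelium, read 9.75, 9.33 and 10.15 in monolayer at day 3 and 7.44, 7.38 and 7.36 at day 8. Sandwich arrays ran from 6.85 to 7.24 over both days, and the gap went from 6.35-fold to 1.37-fold (gap change 2.22 ± 0.24, limma adjusted p = 8.76e-07). Dio3, the deiodinase that inactivates thyroid hormone, and Cdh17, an intestinal-type cadherin, fell in monolayer by 1.46 and 1.12, and the gap at day 8 was no longer called for either. Lamb3, a laminin chain of epithelial hemidesmosomes, fell by 1.34 in monolayer, from a 2.57-fold gap to 1.02-fold.

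Other gaps narrowed or closed through a rise in sandwich. Ccn2, a matricellular growth factor and a standard target of YAP, read 10.19, 9.92 and 10.26 in sandwich at day 3 and 13.31, 13.27 and 13.02 at day 8. Monolayer arrays rose as well, from 12.81, 12.56 and 12.83 to 13.98, 13.86 and 13.79, toward the top of the scale at 15.07. The gap shrank from 6.11-fold to 1.60-fold (gap change 1.93 ± 0.21, limma adjusted p = 8.36e-07). Cited2, a transcriptional co-regulator, rose by 1.46 in sandwich and was flat in monolayer (0.00). Procr, the protein C receptor, and Nectin2, an adhesion protein of epithelial junctions, rose in sandwich by 1.74 and 1.19 and closed. Of 30 measured targets of YAP and serum response factor, 3 moved toward sandwich (against 4.58% of all genes) and 4 toward monolayer (against 4.23%). Edn1, the endothelin gene, rose by 1.07 in sandwich, from a 2.18-fold gap to 1.01-fold (gap change 1.12). Axl, a receptor kinase gene, went the other way with -1.44.

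The promoters of Fam25a and Ccn2 are shown for the motifs of AP-1 and TEAD. Fam25a lies at chr16:9690679-9690978 on the minus strand and holds the AP-1 letters TGACTCA (capitals).
Fam25a: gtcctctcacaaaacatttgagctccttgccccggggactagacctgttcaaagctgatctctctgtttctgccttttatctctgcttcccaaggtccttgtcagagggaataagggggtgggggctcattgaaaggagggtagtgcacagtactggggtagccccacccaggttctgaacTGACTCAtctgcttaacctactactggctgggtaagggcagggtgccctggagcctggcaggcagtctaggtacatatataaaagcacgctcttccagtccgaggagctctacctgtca
Ccn2 lies at chr1:22624565-22624864 on the minus strand and holds the TEAD letters GGAATG at 3 positions (capitals), starting at bases 85, 150 and 159 of the window.
Ccn2: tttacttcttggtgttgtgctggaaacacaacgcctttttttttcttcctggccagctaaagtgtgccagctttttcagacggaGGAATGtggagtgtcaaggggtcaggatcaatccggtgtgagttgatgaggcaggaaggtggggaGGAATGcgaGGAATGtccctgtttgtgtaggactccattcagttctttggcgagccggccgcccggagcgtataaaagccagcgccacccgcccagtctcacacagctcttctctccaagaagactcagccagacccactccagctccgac
AP-1 letters stood in 11 of the 107 promoters matched for genes that narrowed with monolayer higher (10.3%) and in 3.80% of all, and TEAD letters in 17 of 107 (15.9%) and in 11.7% of all. Procr, Cyp3a9 and Tnfaip3 were others with the AP-1 letters. In genes that widened with monolayer higher the share with AP-1 letters was 3.72%. These shares are descriptive.

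Among genes higher in sandwich whose gap narrowed, a fall in sandwich alone was the most frequent course (56 of 101). Csad, which makes the taurine precursor, read 9.09, 9.54 and 9.26 in sandwich at day 3 and 7.48, 7.59 and 7.48 at day 8. Monolayer arrays read 7.19, 7.52 and 7.25 and then 7.62, 7.72 and 7.45, and a 3.94-fold gap was no longer called (gap change -2.06 ± 0.24, limma adjusted p = 2.62e-06). It was the member of the amino acid list that went against the other 26. Slc27a5, a fatty acid and bile acid activating enzyme, fell by 1.5 in sandwich, and its gap went from 2.05 to 0.78. The leucine-rich secreted protein gene Tsku, the ascorbate transporter gene Slc23a1 and the aldehyde oxidase gene Aox1 fell in sandwich by 0.93, 1.45 and 0.78. Of the 101 genes in this class, 97 had the same sign at day 2, and 27 were called there.

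**Figure D4:**
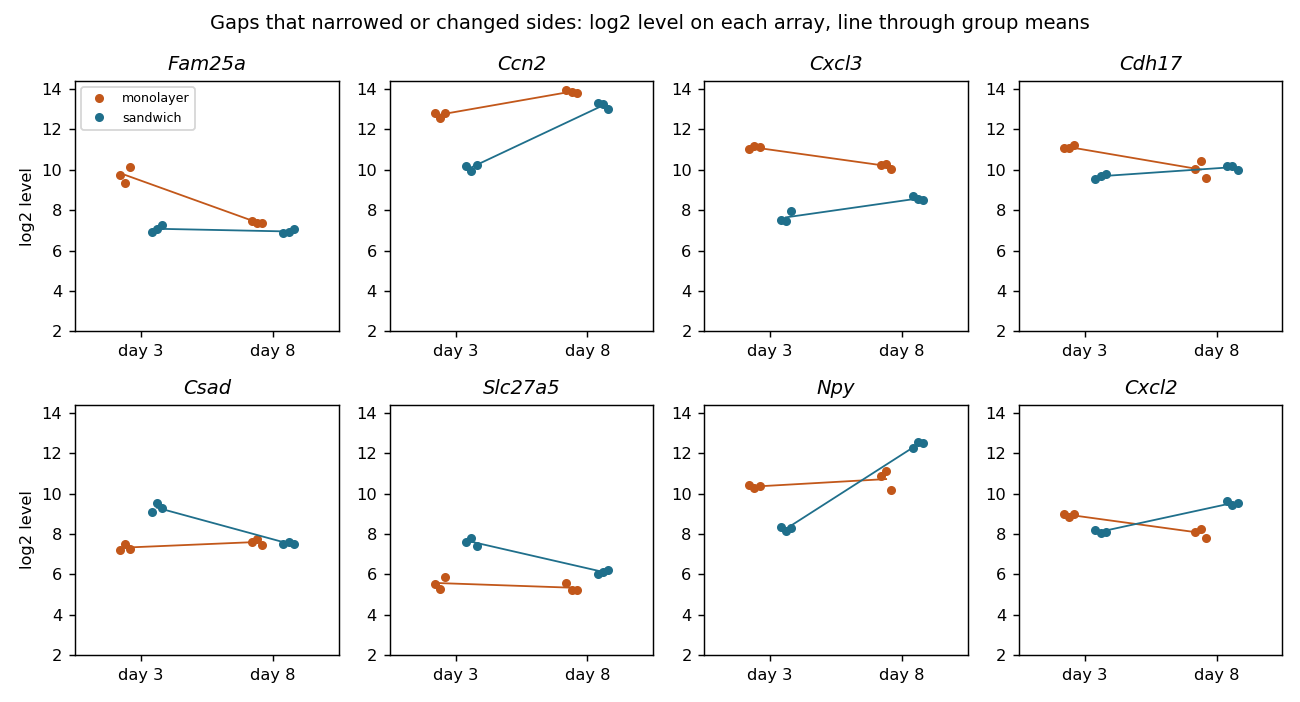
Log2 level on each of the 3 arrays per group at days 3 and 8 for 8 genes whose gap narrowed or changed sides, with monolayer in orange, sandwich in blue and lines through the group means. Fam25a and Cdh17 fall in monolayer, Ccn2 and Cxcl3 approach with sandwich rising, Csad and Slc27a5 fall in sandwich, and the lines of Npy and Cxcl2 cross.

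The largest gap change of any gene was that of Npy, which encodes neuropeptide Y. Sandwich arrays read 8.32, 8.14 and 8.28 at day 3 and 12.24, 12.56 and 12.50 at day 8, a rise of 4.18. Monolayer arrays read 10.40, 10.27 and 10.36 and then 10.86, 11.10 and 10.19, with no called change. Monolayer was 4.27-fold higher at day 3 and sandwich 3.29-fold higher at day 8, without overlap on either day (gap change 3.81 ± 0.24, limma adjusted p = 2.62e-10). Cyp3a9, a cytochrome P450 of steroid oxidation, changed sides from a gap of -1.58 to 0.47, and Pkdcc, a secreted kinase gene, from -0.58 to 1.27. Bmp2, a growth factor of the TGF-beta family, went from -0.53 to 0.91.

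Some genes crossed toward monolayer. Aldh1a1, a retinal dehydrogenase, read 9.27, 9.33 and 9.36 in monolayer at day 3 and 11.66, 11.63 and 11.61 at day 8, against 9.56, 9.81 and 9.57 and then 10.03, 10.17 and 10.04 in sandwich. The gap turned from 0.33 to -1.55 (gap change -1.88 ± 0.13, limma adjusted p = 6.89e-10). Fgfr3, a growth factor receptor, turned from 0.36 to -1.37, rising in monolayer by 1.24 and falling in sandwich by 0.48. Slc25a45, a mitochondrial carrier, and Ptgr1, a prostaglandin reductase, turned from 0.97 to -0.55 and from 0.63 to -0.51.

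Several chemokine genes moved toward sandwich. Of 45 measured genes of inflammation and chemokines, 13 moved toward sandwich (against 4.58% of all genes) and 2 toward monolayer (against 4.23%). The median gap went from 0.01 to 0.12. At an adjusted p under 0.01 in limma the 13 were 8. Cxcl3, a neutrophil attractant, read 11.02, 11.18 and 11.13 in monolayer at day 3 and 10.23, 10.31 and 10.05 at day 8, against 7.53, 7.45 and 7.95 and then 8.70, 8.53 and 8.49 in sandwich. Its gap shrank from -3.46 to -1.62, which is 3.07-fold at day 8. Cxcl2 crossed, from 9.00, 8.86 and 8.98 in monolayer and 8.20, 8.03 and 8.10 in sandwich to 8.12, 8.22 and 7.81 and 9.62, 9.43 and 9.53. Ccl20 and Cxcl1 widened toward sandwich, with gap changes of 1.54 ± 0.20 and 1.32 ± 0.17, and Ccl2, a monocyte attractant, closed in part, from 7.03-fold to 3.72-fold. The call for Ccl2 (0.92) was lost without the second monolayer array of day 3, the third monolayer array of day 8, the first or the second sandwich array of day 3, or the first sandwich array of day 8 (limma adjusted p = 0.0543 to 0.0788). Cxcl6 and Cxcl12, also chemokine genes, were the 2 that moved toward monolayer, with -1.11 and -0.61.

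Of 32 measured genes of the oxidative stress response, 11 moved toward monolayer (against 4.23% of all genes) and 2 toward sandwich (against 4.58%). The other 19 were not called, and 28 of the 32 gap changes were below 0. The median gap went from 0.19 to -0.03. The count of 11 was 6 in the fit of the 12 arrays alone and 6 at an adjusted p under 0.01 in limma. Hmox1, the heme-degrading enzyme, read 8.83, 8.65 and 8.84 in monolayer at day 3 and 9.39, 9.08 and 9.61 at day 8, against 9.41, 9.27 and 9.26 and then 8.86, 8.84 and 8.96 in sandwich, and changed sides. Nfe2l2, which encodes NRF2, the regulator of this response, and its target Txnrd1, thioredoxin reductase, rose in monolayer by 0.40 and 0.42 and fell in sandwich by 0.24 and 0.27. Srxn1, another target, had a gap change of -0.83 ± 0.18. Gclc and Nqo1 had -0.54 and -0.40, and both lost the call in several fits that left out an array. Prdx3 and Sod2, of mitochondria, were the 2 that moved toward sandwich.

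Of 15 measured macrophage markers, 6 moved toward monolayer (against 4.23% of all genes) and 0 toward sandwich (against 4.58%). The median gap went from 0.56 to 0.00. Cd68 read 6.39, 6.29 and 6.36 in monolayer at day 3 and 7.51, 7.01 and 7.51 at day 8, against 7.10, 7.13 and 6.76 and then 6.59, 6.71 and 6.60 in sandwich. C1qc, Cd163 and C1qa, of complement and scavenger function, rose in monolayer by 0.89, 0.77 and 0.82 with no called change in sandwich. Clec4f, the lectin of Kupffer cells, fell by 1.10 in sandwich. The mean level of the list ran from 6.16 to 6.22 on monolayer arrays and from 6.65 to 6.73 on sandwich arrays at day 3, and from 6.48 to 6.66 and from 6.45 to 6.70 at day 8. Adgre1 and Ptprc were dim in every group, with means from 3.12 to 3.19 and from 3.99 to 4.26. The part of macrophage RNA in the chemokine and stress gene values was not tested.

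Endothelial markers gave 1 toward sandwich of 16 (6.25% called, near the 8.81% of all genes). That gene was Clec14a, with a gap change of 1.75 ± 0.35 from low levels. Neither 16 lymphocyte markers nor 8 neutrophil and red cell markers had a called gap change by limma. Genes of ribosomes, oxidative phosphorylation and the proteasome had few called changes, against 8.81% of all genes. Of 42 measured cytosolic ribosomal protein genes 1 was called, yet 40 had a gap change below 0, with a median of -0.23 against -0.01 for all genes. That median was -0.22 after median centring and also after quantile normalization. Oxidative phosphorylation had 1 of 52 called and the proteasome 0 of 30. Cell cycle genes were higher in monolayer for 41 of 61 at day 3 (against 11.8% of all genes) and 34 at day 8 (against 20.7%). Their gap change was called for 5 toward monolayer (8.2%, against 4.23% of all genes) and 0 toward sandwich (against 4.58%). Among the 5 was Mcm7, a replication helicase subunit, with -0.71. Hspa1a, the inducible heat shock protein, changed sides from 0.50 to -0.88. Its list had 2 toward monolayer and 1 toward sandwich of 18 (16.7% called, against 8.81% of all genes).

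The reading by a gene's brightest probe set was checked against its other probe sets. Among the genes named by a fixed rule that had a called gap change, 26 had other probe sets, 36 in all. Of these 31 had the same sign, and the other 5, of Cxcl3, Gata6, Lama5, Mat2a and Mmp2, lay between -0.04 and 0.17. By limma, 23 were called that way and 0 against it. Car3 and Gclc, called genes chosen after their values were seen, have 2 probe sets each and were not in this check. The call of Car3 was lost when its probe sets were averaged.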

How the data were processed

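Total RNA of 24 samples (8 groups of 3) was labelled as biotin cRNA and hybridised to Affymetrix rat arrays, per the labels' protocols. The deposited values are log2 probe set levels in 1 table; the submitters' processing notes name RMA, which summarises and normalizes such arrays, and limma, without roles or versions. The scale runs from 2.61 to 15.07, no detection calls are given, and the number of arrays limits precision.

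Of 31099 probe sets, 57 controls were left out. Each gene was represented by its probe set, among those with exactly 1 symbol (20826; 436 had several and 9780 none), with the highest mean over 24 arrays. Symbols came from the platform annotation, of which 20758 identifiers matched the RefSeq gene table. Means of the 8 groups were fitted to all 24 arrays with limma 3.58.1 in R 4.3.3 (lmFit, eBayes), with Benjamini-Hochberg adjustment over 31042 probe sets for each contrast, two-sided, called under 0.05. Folds are given where the lower group mean was at least 5.62, the median of all values. The fit was tested on simulated data.

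A called gap change was said to widen where it had the sign of the mean gap of days 3 and 8. The genes named were the 10 largest changes in each of 4 classes, 6 that crossed, the 4 of smallest adjusted p in each of 38 lists (31 processes, 7 sets of markers) and a few hepatocyte genes; others (Acta1, Tagln, Flna, Sox4, Cd24, Car3, Fabp1, Txnrd1, Gclc, Nqo1, Col4a2, Plg, Ccl2 and further list members) were chosen after their values were seen. The contrast, the members and the lists were chosen with earlier results of these data known. Alternatives were leaving out each array, other normalizations, weights, filters and thresholds, and the replicate number as a block.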

Additional observations from a re-analysis of the deposited data

Results flagged for a closer look

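In 127 genes both cultures had a called change from day 3 to day 8, in opposite directions, and the difference between the changes was itself called by limma (adjusted p under 0.05). In 82 of them sandwich rose and monolayer fell, and in 45 sandwich fell and monolayer rose. The 33 named genes among them are given here with their gap change on the log2 scale.

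Genes of metabolism and plasma proteins that rose in sandwich and fell in monolayer were Apoa4 (2.57), Gstm3 (2.37), Cyp3a9 (2.05), Insig1 (1.87), Hgd (1.81), Cyp2e1 (1.71), Gys2 (1.59), Lpin1 (1.53), Got1 (1.43), Tat (1.32), Cyp2c22 (1.25) and Apoa1 (0.79). Chemokine genes with that course were Cxcl2 (2.31), Cxcl3 (1.85), Ccl20 (1.54) and Cxcl1 (1.32). The others were Cox6a2 (1.38), a muscle-type respiratory subunit, Nupr1 (1.18), a stress-induced chromatin protein, Rgs5 (1.12), a pericyte marker, and Cnn2 (0.88), a calponin.

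Genes that fell in sandwich and rose in monolayer were Mat2a (-2.84), Gstp1 (-1.84), Fgfr3 (-1.72), Skil (-1.62), Slc25a45 (-1.52), Lgals3 (-1.46), Hspa1a (-1.38), Gbp2 (-1.27), Spink1l (-1.10), Hmox1 (-1.01), Mcm7 (-0.71), Txnrd1 (-0.69) and Nfe2l2 (-0.63).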

How the results depend on the processing

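Of 148 named genes with a called gap change, 129 kept the call in every one of 22 alternatives that gave them a value, and 19 lost it in at least 1; no called change reversed. Leaving out each array in turn gave 1414 to 1825 probe sets, 734 to 958 of them toward sandwich and 662 to 978 toward monolayer, and 942 to 1212 genes. The widened classes held 417 to 537 (sandwich higher) and 351 to 515 (monolayer higher) genes, the narrowed classes 66 to 125 and 96 to 134, and 41 to 64 crossed. In the order of the report, the day 2 counts were then 86 to 120 further and 29 to 45 back, and 103 to 134 back and 45 to 57 further. Changes within a culture gave 1600 to 2182 genes in sandwich and 1820 to 2488 in monolayer, the gaps 2576 to 3253 at day 3 and 4446 to 5212 at day 8, and day 1 to 2 gave 110 to 134.

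At an adjusted p under 0.01, 1012 probe sets were called (582 toward sandwich, 430 toward monolayer) and 708 genes, with 235 widened toward monolayer, 49 and 78 narrowed, 25 crossed, 1350 changed in sandwich, 1604 in monolayer, and 56 from day 1 to 2. The day 2 counts were 55 and 17, and 75 and 24. With the interquartile range as covariate, 155 and 205 genes narrowed, 91 crossed, 215 changed from day 1 to 2, and the first day 2 counts were 190 and 88. With the gene's probe sets averaged, 153 genes narrowed with sandwich higher, 67 moved back and 88 further. With the replicate block 188 genes changed from day 1 to 2, 58 moved back and 87 further, and no called named gene was lost. The genes higher in sandwich at day 2 that moved back were 67 after quantile normalization, 22 after median centring, 81 with array weights (327 from day 1 to 2) and 60 for bright probe sets (89 monolayer genes further). With the sign of the day 2 gap in place of the mean gap, the classes held 318, 306, 296 and 333 genes. The causes of these differences were not tested. The labels do not say that replicate numbers pair the arrays. Deviations of same-numbered arrays correlated between -0.263 and 0.492 (median 0.205, 14 of 18 above 0.1) and those of differently numbered arrays between -0.404 and 0.303 (median -0.121, 5 of 36). Since not every same-numbered pair was above 0.1, nor every array closest to its own number, the numbers were not taken as pairs; the block gave 2512 probe sets and 1606 genes. With 3 arrays per group, the smallest gap change called for a gene was 0.36.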
